A study of Saccharomyces pastorianus with 12 samples.

Results

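Transcripts of 38 genes for molecular chaperones and co-chaperones were followed through a brewery propagation of lager yeast. The genes were taken by name, as the probe sets of the array whose platform annotation names a listed chaperone gene of Saccharomyces cerevisiae, and all 38 were found among the 5635 S. cerevisiae genes that a probe set names alone. They comprise 9 stress-induced heat shock proteins, 6 constitutive cytosolic chaperones of the Hsp70, Hsp90 and Hsp110 families, 9 cytosolic co-chaperones, 5 mitochondrial chaperones, KAR2 of the endoplasmic reticulum and 8 subunits of the cytosolic chaperonin. Saccharomyces pastorianus, strain CB11, a hybrid yeast used to ferment lager, was grown aerobically in a 140 hl vessel inoculated from a culture in an 8 hl vessel. The wort had a gravity of 17° Plato, was made of 80% malt and 20% maltose adjunct, carried zinc at 0.5 mg per l, and was held at 20 °C with 7 to 8 mg per l of dissolved oxygen. Samples A, B and C were taken at each of 4 times, 0 h (just after inoculation), 4 h, 8 h and 30 h, and each of the 12 samples was measured on 1 Affymetrix array. The labels place all samples in the same kind of vessel and do not say that A, B and C were separate propagations, so the tests below measure the spread between samples, which may be technical.

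Chaperones bind proteins that are not folded and help them fold, keep them from clumping or pull clumps apart, many of them with the use of ATP. Hsp70 proteins bind short exposed stretches with the help of J-domain proteins, which start ATP hydrolysis, and exchange factors, which end the cycle; Hsp90 acts later on a narrower set of proteins with its own co-chaperones; the ring-shaped chaperonins enclose their substrates. In yeast, many of these genes are driven by the heat shock factor Hsf1, by the stress factors Msn2 and Msn4, or by both. Some family members are made at all times, others mainly under heat, ethanol, starvation or other stress.

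The values are signals per probe set, put on a common scale by quantile normalisation of log2 signals over 5503 tested genes, and changes are log2 differences between group means ± the standard error from limma, with n = 3 arrays a time. Calls required a Benjamini-Hochberg adjusted p below 0.05, taken over all 5503 genes. The standard errors pool the spread of all times, and that spread was unequal. Every member had a smaller SD of log2 signals at 4h than at 0h, with 0.07 against 0.74 for HSP82. Leaving out a 4h array also changes the pooled error, so a call lost that way need not rest on the 4h values. All 38 members passed the filter on dim genes, which used the mean over all 12 arrays. A signal counted as above background where it exceeded the 95th percentile of the Schizosaccharomyces pombe probe sets of its array, a species absent from the labels, and 33 to 38 members did so on each array. The arrays of 8h and 30h had a narrower range than those of 0h and 4h, with an SD of log2 signals over genes of 1.21 to 1.33 against 1.91 to 2.03. Changes at 8h against 4h and at 30h against 0h therefore cannot be told apart from this change between arrays. The deposited arrays of 0h and 4h differed too, with means after trimming of 134 to 377 and of 100.07 to 100.08. How far changes at 4h against 0h reflect differences between arrays was not tested. The 3′ to 5′ signal ratio, which rises when labelled transcripts are incomplete, was high for 2 arrays: its median over 8 control genes reached 35.5 for 0h A and 6.96 for 0h C, with 1.88 for 0h B and 1.30 to 2.02 for arrays of the later times. Signals are relative to the other transcripts of an array, and fewer cells expressing a gene and less of its RNA per cell cannot be told apart in these bulk samples. The probe sets are named for S. cerevisiae genes, and how well they bind transcripts of other gene copies in the hybrid was not tested.

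Many chaperone transcripts were higher at 4h than at inoculation, most were lower at 8h than at 4h, and most were below their 0h level at 30h. At 4h against 0h, 16 of the 38 genes rose and 1 fell, where 11.8% of all tested genes were called higher and 11.8% lower. In the next step, 8h against 4h, 30 fell and 2 rose, against 33.9% lower and 30.7% higher among all tested genes. Little moved after that: at 30h against 8h, 2 members fell and 1 rose, where 2.73% and 0.909% of tested genes did. Over the whole propagation, 30h against 0h, 26 fell and 2 rose, against 33.3% lower and 31.2% higher among all tested genes. An F test for any difference between the 4 times called 35 of the 38, where 78.4% of tested genes were called; HSP31, CCT3 and CCT8 were the members that did not pass. Consecutive comparisons share the arrays of 4h or 8h, and both comparisons with 0h share its arrays, so the counts are not independent.

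The median log2 change of the members was 0.78 at 4h against 0h, -1.92 at 8h against 4h, -0.09 at 30h against 8h and -1.34 at 30h against 0h. Over all tested genes the medians were 0.02, -0.12, 0.02 and -0.11. Of the 38 genes, 18 were among the 1376 tested genes with the highest mean signal over the 12 arrays. At 8h against 4h, 13 of these 18 fell and 0 rose, where 34.7% of the 1376 bright genes fell and 32.5% rose, and the median change was -1.48 for those members and -0.09 for the bright genes. At 4h against 0h 7 of the 18 rose and 1 fell, where 16.2% of bright genes rose and 12.3% fell. At 30h against 8h 0 rose and 2 fell (1.67% and 8.72% of bright genes), and at 30h against 0h 0 rose and 13 fell (34.1% and 37.2% of bright genes).

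Of the 16 rises at 4h against 0h, 8 stood under each of 22 alternative settings: those of HSP42, HSP104, SSE2, SSA2, AHA1, CPR6, HSP60 and HSP78. The other 8 were each lost under at least 1 setting. Fewer members rose when 1 of the 4h arrays was left out, 10 without 4h A and 9 without 4h B or 4h C. The share of all tested genes called higher fell too, from 11.8% to 6.11% without 4h A, 5.82% without 4h B and 6.45% without 4h C. Without 0h A, 14 rose and 4 fell, where 14.2% of all tested genes were called higher and 13.9% lower. Without both 0h A and 0h C, the arrays with the high 3′ to 5′ ratios, the median change of the members was 0.65 in place of 0.78. This setting leaves 0h B as the only array of 0h. Counts and lost calls given for it elsewhere rest on 1 array at 0h, without the spread between 0h arrays.

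**Figure D1:**
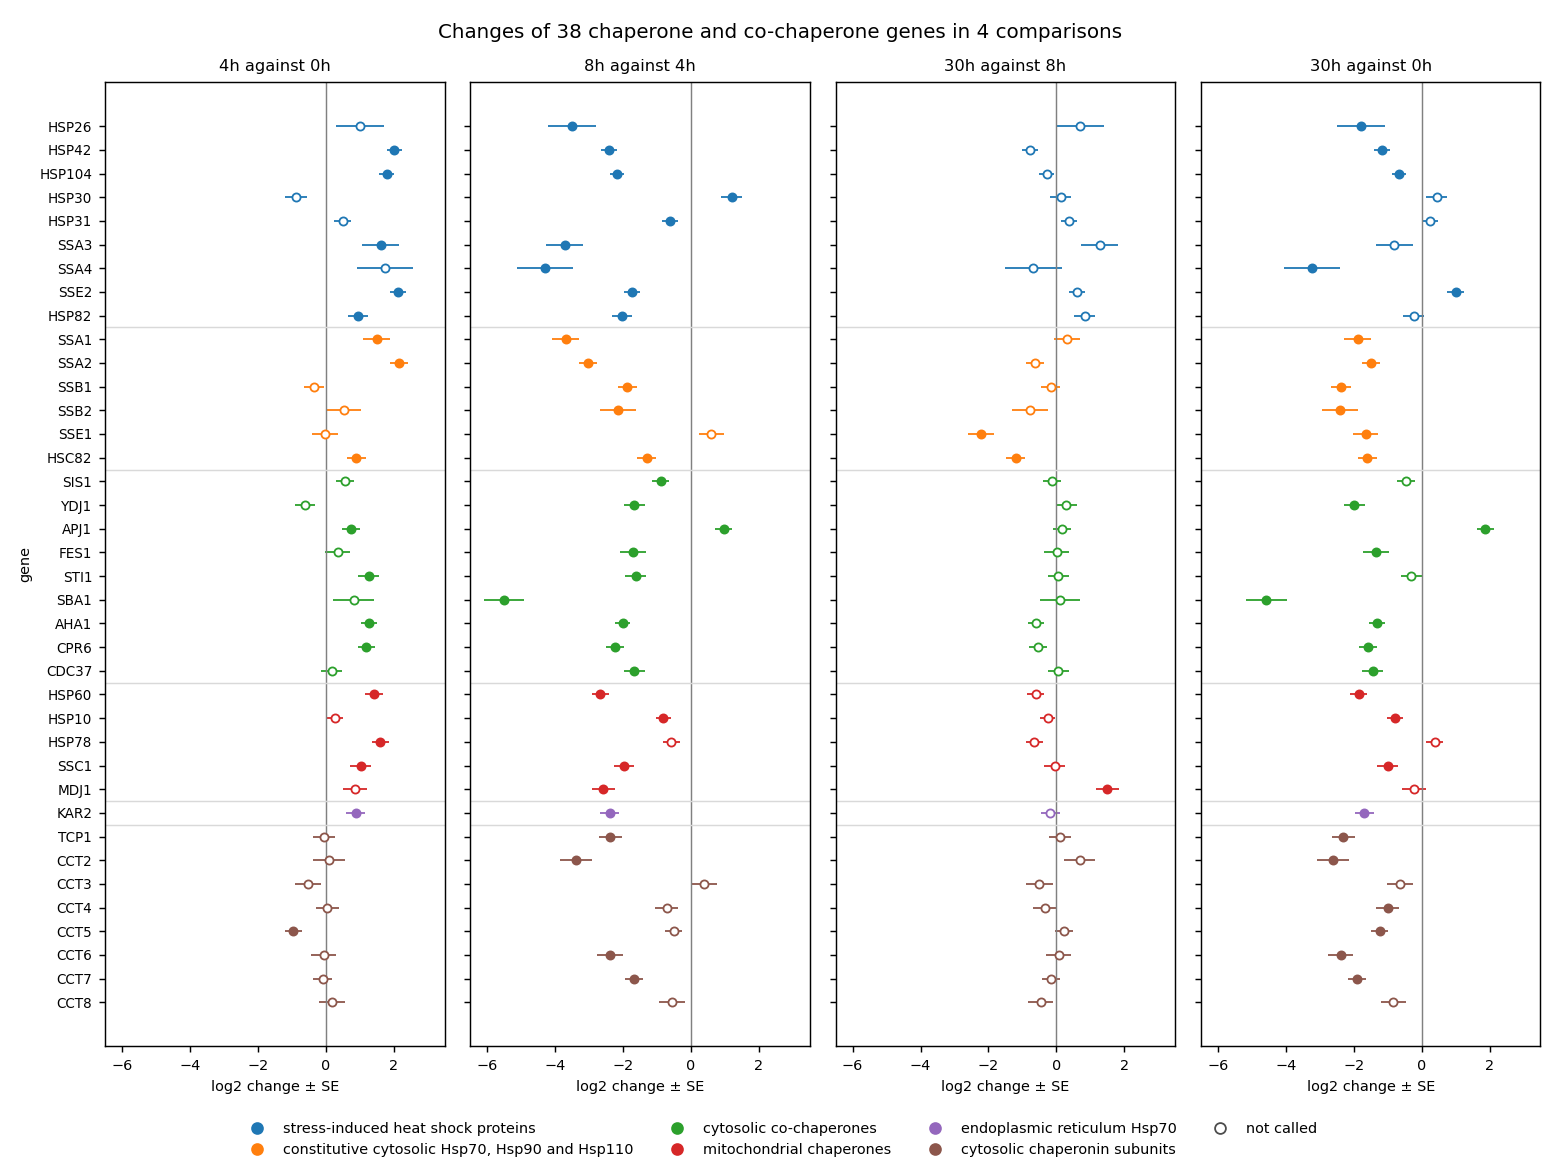
Log2 changes with their limma standard errors (horizontal axis, n = 3 arrays a time) for the 38 genes (vertical axis) in the 4 comparisons, coloured by role, with filled points for called genes and open points for genes not called. Most points lie right of 0 at 4h against 0h, where the chaperonin subunits centre near 0, and left of 0 at 8h against 4h. In the second panel HSP30 and APJ1, called higher at 8h, and SSE1 and CCT3, not called, lie right of 0.

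Stress-induced heat shock proteins had, among the 5 classes of several genes, the highest median at 4h against 0h. Of the 9, 5 rose and 0 fell at 4h against 0h, with a median of 1.63; 8 fell and 1 rose at 8h against 4h, with a median of -2.18. Without 0h C, or without any single 4h array, 3 of the 9 rose at 4h. At 30h against 8h 0 were called in either direction, and at 30h against 0h 1 rose and 4 fell (median -0.67), or 1 fell with each array scaled to 1 trimmed mean. For this class and those below, the shares of all tested genes were 11.8% higher and 11.8% lower at 4h against 0h. They were 30.7% and 33.9% at 8h against 4h, and 0.909% and 2.73% at 30h against 8h. At 30h against 0h they were 31.2% and 33.3%.

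HSP42 encodes a small heat shock protein that gathers misfolded proteins into deposits. Its normalised signals in samples A, B and C were 171, 141 and 189 at 0h, then 655, 683 and 679 at 4h, then 149, 114 and 116 at 8h, and last 86.3, 58.8 and 78.8 at 30h. The 4h arrays stood above all others, and the 30h arrays below all others. HSP42 rose by 2.02 ± 0.23 at 4h against 0h (adjusted p = 5.36e-05), fell by 2.42 ± 0.23 at 8h against 4h (adjusted p = 9.91e-07) and was -0.77 ± 0.23 at 30h against 8h, which did not pass (adjusted p = 0.0867).

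HSP104, for the disaggregase that pulls proteins out of aggregates together with Hsp70, also peaked at 4h. Its signals were 148, 164 and 184 at 0h, then 543, 561 and 615 at 4h, then 134, 108 and 137 at 8h, and last 110.3, 117 and 85.9 at 30h. It rose by 1.80 ± 0.22 at 4h against 0h, a 3.47-fold change, and fell by 2.18 ± 0.22 at 8h against 4h (adjusted p = 8.31e-05 and 1.48e-06). At 30h against 0h it fell by 0.67 ± 0.22 (adjusted p = 0.0138); the call was lost without 0h C or 30h C, and with each array scaled to 1 trimmed mean, where the change was -0.37.

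HSP26, for the other main small heat shock protein, had 1 array at 0h far below its fellows. Its signals were 31.6, 413 and 292 at 0h, then 294, 324 and 333 at 4h, then 23, 27.4 and 34.6 at 8h, and last 88.8, 31.9 and 33 at 30h. The change at 4h against 0h was 1.02 ± 0.71 (adjusted p = 0.319), and -0.13 without 0h A, the array with the 3′ to 5′ ratio of 35.5. HSP26 fell by 3.50 ± 0.71 at 8h against 4h, where the arrays did not overlap (adjusted p = 0.000665). Its fall at 30h against 0h, by 1.78 ± 0.71 (adjusted p = 0.0399), became -2.88 without 0h A, and the call was lost without any single 8h array and when any of 30h B, 30h C, 0h B and 0h C was left out (adjusted p up to 0.186), with -1.06 for the fit that omits 0h B.

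HSP30, for a plasma membrane protein that restrains the proton pump Pma1, was lowest at 4h and was called higher at 8h. Its signals were 79.8, 182 and 162 at 0h, then 75.2, 71.2 and 70.9 at 4h, then 210.4, 134 and 161 at 8h, and last 233, 171 and 148 at 30h, with all 4h arrays below all others. The change at 4h against 0h was -0.88 ± 0.31 (adjusted p = 0.056), called at -1.22 without 0h A (adjusted p = 0.00196). HSP30 rose by 1.19 ± 0.31 at 8h against 4h (adjusted p = 0.00413). HSP31, for a methylglyoxalase with chaperone activity, was 0.50 ± 0.24 at 4h against 0h (adjusted p = 0.144), and fell by 0.62 ± 0.24 at 8h against 4h, a call lost without any single 4h array and without 8h A or 8h C (highest adjusted p = 0.100), and -1.34 with median centring.

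**Figure D2:**
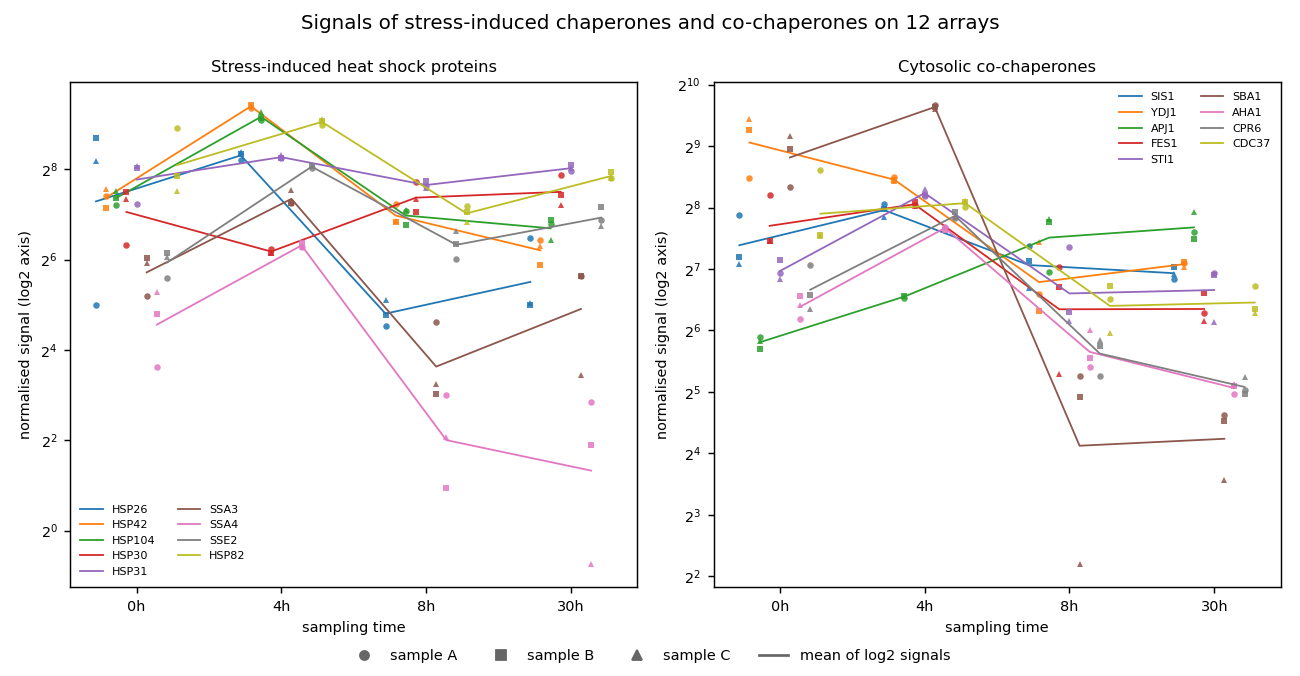
Quantile-normalised signals (vertical axis, log2 scale) of 9 stress-induced heat shock protein genes and 9 cytosolic co-chaperone genes at the 4 sampling times (horizontal axis); marker shapes give samples A, B and C, and lines join the means of log2 signals. HSP42, HSP104, SSE2 and SSA4 peak at 4h, HSP30 is lowest at 4h, SBA1 drops after 4h, and APJ1 ends above its start; heights of different genes are not comparable.

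The SSA genes encode the main cytosolic Hsp70, with SSA1 and SSA2 made in growing cells and SSA3 and SSA4 induced by stress. SSA2 had the largest rise of the 38 genes at 4h against 0h. SSA1, SSA2 and SSA3 rose at 4h, all 4 genes fell at 8h, and SSA4 dropped out of the range that the arrays could measure. The coding sequences of the family are alike, and probe sequences were not used here, so signals of these genes may not be wholly separate measurements.

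SSA2 had signals of 111, 128 and 116 at 0h, then 532, 562 and 496 at 4h, then 56.4, 89.1 and 52.9 at 8h, and last 32.6, 41.3 and 54.1 at 30h. All 4h arrays were above all others, and every 8h and 30h array was below every 0h array. SSA2 rose by 2.16 ± 0.26 at 4h against 0h and fell by 3.04 ± 0.26 at 8h against 4h (adjusted p = 8.31e-05 and 4.54e-07). At 30h against 0h it fell by 1.50 ± 0.26 (adjusted p = 0.000183), with -0.87 when each array was scaled to 1 trimmed mean.

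SSA1 had signals of 136, 192 and 215 at 0h, then 462, 508 and 543 at 4h, then 50.7, 57.2 and 20.2 at 8h, and last 81.5, 36.1 and 38.2 at 30h. At 8h 2 of 3 arrays had it above background. SSA1 rose by 1.50 ± 0.39 at 4h against 0h (adjusted p = 0.0149), a call lost if 4h B or 4h C is left out (adjusted p up to 0.119 over all settings). It fell by 3.70 ± 0.39 at 8h against 4h and by 1.88 ± 0.39 at 30h against 0h (adjusted p = 2.89e-06 and 0.000847).

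SSA3 had signals of 36.7, 65.2 and 60.7 at 0h, then 151, 153 and 185 at 4h, then 24.5, 8.13 and 9.56 at 8h, and last 49.4, 49.8 and 11 at 30h. At 8h 1 of 3 arrays had it above background. Its rise at 4h against 0h, by 1.63 ± 0.55 (adjusted p = 0.0447), was lost without 0h A, 0h C, 8h B, 8h C or any single 4h array. It fell by 3.71 ± 0.55 at 8h against 4h (adjusted p = 4.69e-05). At 30h samples A and B lay within the range of the 0h arrays and sample C within that of the 8h arrays, and the change at 30h against 8h was 1.28 ± 0.55 (adjusted p = 0.234), called at 2.05 without 30h C.

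SSA4 had signals of 12.2, 27.6 and 38.8 at 0h and 77.9, 83.1 and 77.7 at 4h. Signals of 8.05, 1.92 and 4.18 in the 8h samples and of 7.16, 3.7 and 0.599 in the 30h samples were all at background, as was 0h A. The change at 4h against 0h was 1.75 ± 0.83, which did not pass (adjusted p = 0.139), although the arrays of the 2 times did not overlap. Against background, SSA4 was at least 4.44-fold lower at 8h than at 4h, and at least 2.32-fold lower at 30h than at 0h (adjusted p = 0.000447 and 0.00363). The second call was lost with median centring and with scaling to 1 trimmed mean (adjusted p = 0.0812 and 0.211).

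Hsp90 is made from HSP82, which stress induces, and HSC82, which is expressed at all times. Both were called higher at 4h and lower at 8h. HSP82 had signals of 485, 229 and 182 at 0h, then 501, 537 and 551 at 4h, then 145, 132 and 114 at 8h, and last 225, 244 and 225 at 30h. HSC82 had signals of 698, 362 and 405 at 0h, then 838, 867 and 913 at 4h, then 435, 376 and 270.5 at 8h, and last 121, 184 and 165 at 30h.

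For both Hsp90 genes, 0h A lay between the 4h arrays and the lower arrays 0h B and C. HSP82 rose by 0.96 ± 0.30 and HSC82 by 0.90 ± 0.28 at 4h against 0h (adjusted p = 0.0336 and 0.0331), and each call was lost without any single 4h array and without each of the arrays 0h B and 0h C (adjusted p up to 0.130 and 0.108). At 8h against 4h HSP82 fell by 2.03 ± 0.30 and HSC82 fell by 1.30 ± 0.28 (adjusted p = 4.88e-05 and 0.00103). The size for HSC82 depended on the scaling, with -2.65 for median centring and -2.13 for scaling to 1 trimmed mean. At 30h against 8h HSC82 fell by 1.19 ± 0.28 (adjusted p = 0.0293), whereas HSP82 was 0.83 ± 0.30 (adjusted p = 0.163), with every 30h array above every 8h array. The fall of HSC82 was lost under 11 of 22 settings, among them leaving out any single 4h or 30h array, 8h A or 8h B, scaling to 1 trimmed mean, and median centring, where it was -0.88 (adjusted p = 0.378). The difference between the changes of these 2 genes was not tested.

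SSE1 and SSE2 encode Hsp110 proteins, which release nucleotide from Hsp70, and SSE2 is the stress-induced copy. SSE2 had signals of 48.4, 70.8 and 66.3 at 0h, then 261, 268 and 269.97 at 4h, then 64.8, 80.9 and 98.6 at 8h, and last 118, 143 and 107 at 30h. It rose by 2.12 ± 0.24 at 4h against 0h, fell by 1.73 ± 0.24 at 8h against 4h, and ended higher by 0.997 ± 0.24 at 30h against 0h (adjusted p = 5.67e-05, 2.99e-05 and 0.00247), the last being 1.50 with scaling to 1 trimmed mean. Of the stress-induced class, SSE2 was the member called higher at 30h than at 0h.

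SSE1 had signals of 229.99, 719 and 559 at 0h, then 435, 489 and 409 at 4h, then 808, 663 and 568 at 8h, and last 89, 181 and 183 at 30h. It was not called in the steps to 8h, at -0.03 ± 0.38 at 4h against 0h and 0.60 ± 0.38 at 8h against 4h (adjusted p = 0.964 and 0.18). It then fell by 2.23 ± 0.38 at 30h against 8h, with no overlap of arrays (adjusted p = 0.00349). That call was lost with early and late arrays normalised on their own, with median centring and with scaling to 1 trimmed mean; in the last 2 the change was -1.64 and -1.59 (adjusted p = 0.133 and 0.16).

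SSB1 and SSB2 encode Hsp70 proteins that sit on the ribosome and receive new chains. SSB1 had signals of 1759, 1917 and 1625 at 0h, then 1372, 1437 and 1386 at 4h, then 614, 389.6 and 233 at 8h, and last 333, 399.8 and 292 at 30h. SSB2 had signals of 359, 1759 and 2076 at 0h, then 1601, 1581 and 1550.2 at 4h, then 373, 301 and 402 at 8h, and last 119.6, 312 and 238 at 30h. Neither was called in the first 4 h, at -0.33 ± 0.29 for SSB1 and 0.53 ± 0.52 for SSB2 at 4h against 0h (adjusted p = 0.431 and 0.494), and 0h A was low for SSB2, which was -0.28 without that array.

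Both SSB genes fell later. Between 4h and 8h SSB1 fell by 1.87 ± 0.29 and SSB2 fell by 2.15 ± 0.52 (adjusted p = 7.33e-05 and 0.00254). At 30h against 0h SSB1 fell by 2.38 ± 0.29 and SSB2 fell by 2.40 ± 0.52 (adjusted p = 8.64e-06 and 0.00111). SSB1 is the member with more than 1 probe set, the second of which has an ending that marks probes shared with other transcripts; the mean of both gave -1.24 at 8h against 4h. Median centring gave -3.17 for SSB1 and -3.34 for SSB2 at 8h against 4h, and -3.64 for SSB1 at 30h against 0h. Among the 6 constitutive cytosolic chaperones as a class, 3 rose and 0 fell at 4h against 0h (median 0.71, or 0.42 without 0h A), or 1 without 4h B or 4h C, 5 fell at 8h against 4h (median -2.01), and 6 fell at 30h against 0h (median -1.77).

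**Figure D3:**
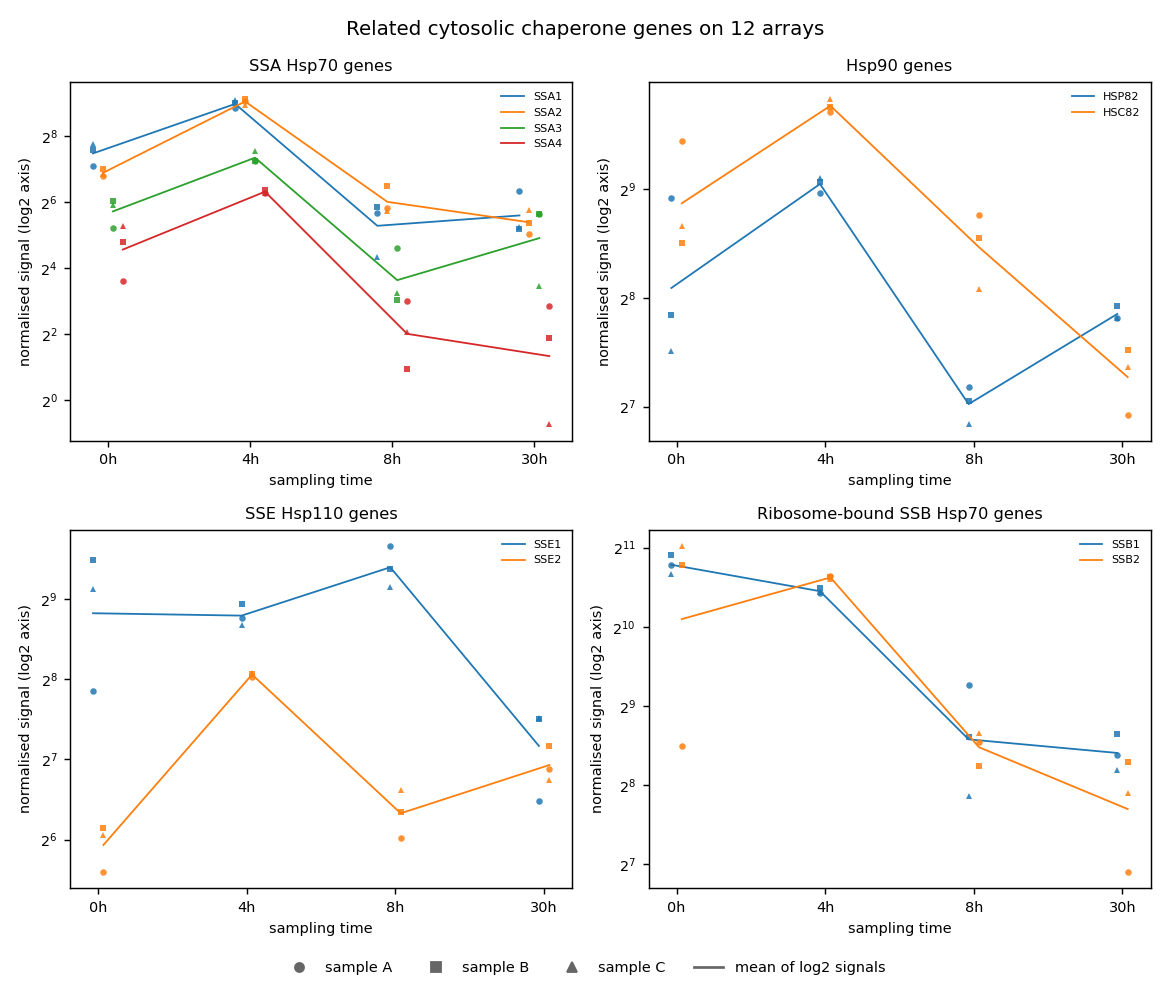
Quantile-normalised signals (vertical axis, log2 scale) of related cytosolic chaperone genes at the 4 sampling times (horizontal axis), with marker shapes for samples A, B and C and lines through the means of log2 signals. The SSA genes share a peak at 4h; HSP82 lies higher at 30h than at 8h while HSC82 lies lower; SSE2 peaks at 4h while SSE1 is lowest at 30h; 0h A stands apart for HSP82, HSC82, SSE1 and SSB2. Heights of different genes are not comparable.

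Cytosolic co-chaperones, which steer Hsp70 and Hsp90, rose in part at 4h and fell almost throughout at 8h. Of the 9, 4 rose and 0 fell at 4h against 0h (median 0.74), and 8 fell and 1 rose at 8h against 4h (median -1.67). At 30h against 8h 0 were called in either direction, and at 30h against 0h 6 fell and 1 rose (median -1.35). Without 0h A and 0h C together, 2 of the 9 rose at 4h.

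The co-chaperones of the class with the 3 largest F values, SBA1, CPR6 and AHA1, all act on Hsp90. AHA1, for the activator of the Hsp90 ATPase, had signals of 72.9, 94.3 and 85.2 at 0h, then 205, 199.6 and 206 at 4h, then 42.3, 46.7 and 64.3 at 8h, and last 31.1, 34.4 and 34.9 at 30h. CPR6, for a peptidyl-prolyl isomerase that binds Hsp90, had signals of 134, 95.6 and 81.3 at 0h, then 227, 243 and 229.8 at 4h, then 38.5, 53.9 and 57.8 at 8h, and last 32.8, 31.1 and 38 at 30h. For both genes the 4h arrays lay above all others, and the 8h and 30h arrays below all 0h arrays.

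AHA1 rose by 1.28 ± 0.23 and CPR6 by 1.20 ± 0.25 at 4h against 0h (adjusted p = 0.00164 and 0.00438). AHA1 fell by 2.02 ± 0.23 and CPR6 fell by 2.24 ± 0.25 at 8h against 4h (adjusted p = 5.58e-06 and 4.71e-06). At 30h against 0h AHA1 fell by 1.32 ± 0.23 and CPR6 fell by 1.58 ± 0.25; with each array scaled to 1 trimmed mean the changes were -0.51 and -0.83, both called.

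SBA1, for the p23 protein that holds Hsp90 in its closed form, had the largest fitted fall of the 38 genes. This rank is uncertain, as the fall of SSA4 to background is known only as a bound. SBA1 had signals of 323, 493 and 573 at 0h, then 812, 796 and 780.5 at 4h, then 38.3, 30.2 and 4.59 at 8h, and last 24.6, 23.1 and 11.8 at 30h. At 8h 2 of 3 arrays had it above background. The change at 4h against 0h was 0.82 ± 0.60 (adjusted p = 0.342). SBA1 fell by 5.51 ± 0.60 at 8h against 4h and by 4.58 ± 0.60 at 30h against 0h, with no overlap of arrays in either (adjusted p = 3.27e-06 and 1.6e-05).

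STI1, which passes proteins from Hsp70 to Hsp90, rose by 1.27 ± 0.31 at 4h against 0h (adjusted p = 0.0112), a call lost without 0h A and 0h C together (adjusted p = 0.12), and fell by 1.63 ± 0.31 at 8h against 4h. CDC37, which brings kinases to Hsp90, was 0.17 ± 0.30 at 4h against 0h (adjusted p = 0.717), fell by 1.67 ± 0.30 at 8h against 4h and fell by 1.44 ± 0.30 at 30h against 0h. FES1, an exchange factor of Hsp70, was 0.35 ± 0.38 at 4h against 0h (adjusted p = 0.533), fell by 1.71 ± 0.38 at 8h against 4h and fell by 1.35 ± 0.38 at 30h against 0h, the last not called without 0h A and 0h C together (adjusted p = 0.078).

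The J-domain proteins YDJ1, SIS1 and APJ1 were not called alike. YDJ1, the general partner of Hsp70 in the cytosol, was -0.60 ± 0.30 at 4h against 0h (adjusted p = 0.163), called lower at -0.85 without 0h A (adjusted p = 0.0282), and fell by 1.67 ± 0.30 at 8h against 4h. SIS1, which is essential and acts with Hsp70 and Hsp104 on aggregates, was 0.57 ± 0.26 at 4h against 0h (adjusted p = 0.123), called with median centring (adjusted p = 0.0387), and fell by 0.89 ± 0.26 at 8h against 4h, or -1.38 with median centring.

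APJ1, a J-domain protein less abundant than YDJ1 in laboratory yeast, was the co-chaperone that ended above its start. Its signals were 59.1, 52.1 and 57 at 0h, then 92.2, 94.6 and 94.8 at 4h, then 124, 218 and 224 at 8h, and last 194, 180.4 and 245 at 30h. Every 8h and 30h array was above every 4h array, and every 4h array above every 0h array. APJ1 rose by 0.96 ± 0.25 at 8h against 4h and by 1.87 ± 0.25 at 30h against 0h (adjusted p = 0.00456 and 2.31e-05). Its rise at 4h against 0h, by 0.74 ± 0.25 (adjusted p = 0.0482), was lost under 13 of 22 settings, among them a block for the sample letter (adjusted p = 0.0565) and leaving out any single 4h or 30h array, 0h B, 0h C or 8h B.

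Mitochondrial chaperones fold imported proteins in the matrix, and of the 5 members HSP60 and SSC1 were called in both steps, higher at 4h and lower at 8h. Of the 5, 3 rose and 0 fell at 4h against 0h (median 1.03), and 4 fell and 0 rose at 8h against 4h (median -1.97). At 30h against 8h 1 rose and 0 fell, and at 30h against 0h 3 fell and 0 rose (median -0.79).

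HSP60, for the mitochondrial chaperonin ring, had signals of 193, 362 and 317 at 0h, then 732, 759.6 and 771 at 4h, then 125, 110.3 and 121 at 8h, and last 95.3, 76 and 65.1 at 30h. The 4h arrays were above all others, and the 30h arrays below all others. HSP60 rose by 1.42 ± 0.25 at 4h against 0h, fell by 2.67 ± 0.25 at 8h against 4h and fell by 1.85 ± 0.25 at 30h against 0h (adjusted p = 0.00141, 1.07e-06 and 2.39e-05).

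HSP10, for the lid of that ring, was not called at 4h. It was 0.28 ± 0.23 at 4h against 0h (adjusted p = 0.403), fell by 0.81 ± 0.23 at 8h against 4h and fell by 0.79 ± 0.23 at 30h against 0h (adjusted p = 0.00637 and 0.00752). HSP10 is bright, and the size of its fall depended on the scaling: at 8h against 4h it fell by 2.11 with median centring and by 1.59 with scaling to 1 trimmed mean. Its change at 30h against 0h was -1.90 with median centring and -1.41 with trimmed scaling, and the call was lost without 0h A and 0h C together (adjusted p = 0.0753).

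SSC1, for the Hsp70 that drives import and folding in the matrix, had signals of 132, 277 and 291 at 0h, then 422, 458 and 467 at 4h, then 138, 84.3 and 127 at 8h, and last 129, 109.8 and 94.4 at 30h. It rose by 1.03 ± 0.31 at 4h against 0h (adjusted p = 0.0268); without 0h A, whose signal was the lowest of the early arrays, the change was 0.64 (adjusted p = 0.0501), and the call was also lost without any single 4h array. SSC1 fell by 1.97 ± 0.31 at 8h against 4h (adjusted p = 7.33e-05) and by 0.996 ± 0.31 at 30h against 0h (adjusted p = 0.0108), the last lost without 0h C and with scaling to 1 trimmed mean (highest adjusted p = 0.0548).

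MDJ1, for the J-domain partner of Ssc1, was the member that rose between 8h and 30h. Its signals were 43.5, 54.6 and 58.4 at 0h, then 102, 94.7 and 86.1 at 4h, then 18.4, 22.8 and 9.17 at 8h, and last 54.3, 48 and 33.3 at 30h. At 8h 2 of 3 arrays had it above background. MDJ1 fell by 2.59 ± 0.34 at 8h against 4h (adjusted p = 1.83e-05), or by 1.55 with scaling to 1 trimmed mean, and rose by 1.50 ± 0.34 at 30h against 8h (adjusted p = 0.0252). The rise was lost under 10 of 22 settings, among them median centring and leaving out any single 4h array, 8h C, 30h A or 30h B (highest adjusted p = 0.170), and its size was 0.92 with an offset of 16 added before log2. At 4h against 0h MDJ1 was 0.86 ± 0.34 (adjusted p = 0.0833).

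HSP78, for the matrix disaggregase related to Hsp104, rose by 1.61 ± 0.25 at 4h against 0h (adjusted p = 0.000542). Unlike HSP104 it was not called at 8h against 4h, at -0.58 ± 0.25 (adjusted p = 0.0559), though its arrays did not overlap and median centring called it (adjusted p = 0.00487). The difference between the 2 genes was not tested.

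KAR2, for the Hsp70 of the endoplasmic reticulum and a target of the unfolded protein response, had signals of 264, 312 and 379 at 0h, then 566, 579.6 and 591 at 4h, then 126, 121 and 88 at 8h, and last 137, 107 and 63.6 at 30h. The 4h arrays were above all others, and all later arrays were below all 0h arrays. KAR2 rose by 0.88 ± 0.28 at 4h against 0h (adjusted p = 0.037), a call lost without 0h A, 0h B or any single 4h array (highest adjusted p = 0.144). It fell by 2.39 ± 0.28 at 8h against 4h and by 1.69 ± 0.28 at 30h against 0h (adjusted p = 6.4e-06 and 0.000132).

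**Figure D4:**
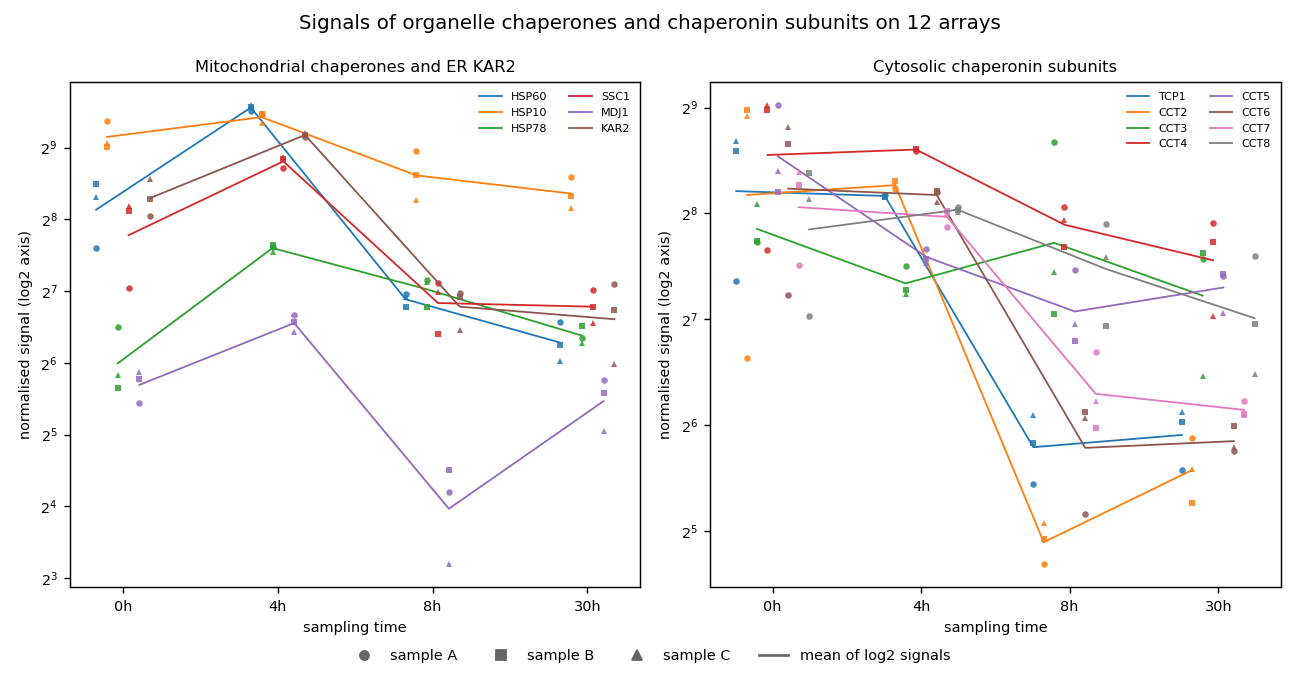
Quantile-normalised signals (vertical axis, log2 scale) of 5 mitochondrial chaperone genes with KAR2, and of the 8 cytosolic chaperonin subunit genes, at the 4 sampling times (horizontal axis); marker shapes give samples A, B and C, and lines join the means of log2 signals. The organelle chaperones peak at 4h, while TCP1, CCT2, CCT6 and CCT7 were called lower after 4h and CCT3, CCT4, CCT5 and CCT8 were not; at 0h sample A lies below B and C for 7 subunits, by little for CCT3, and above them for CCT5. Heights of different genes are not comparable.

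The cytosolic chaperonin, a double ring with 1 copy of each of its 8 subunits in either ring, folds actin and tubulin among other proteins. None of its genes was called higher at 4h: of the 8, 0 rose and 1 fell at 4h against 0h, with a median of -0.05. Among all tested genes 11.8% rose and 11.8% fell in that step. At 8h against 4h 4 fell and 0 rose (median -1.19), where 33.9% of all tested genes fell and 30.7% rose. With median centring 7 fell (median -1.81), as did 35.6% of all tested genes. At 30h against 8h 0 were called in either direction, and at 30h against 0h 6 fell and 0 rose (median -1.58).

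The subunits that fell at 8h were TCP1, CCT2, CCT6 and CCT7. TCP1 had signals of 164, 385 and 412 at 0h, then 289.7, 285 and 286 at 4h, then 43.5, 56.9 and 68.5 at 8h, and last 47.6, 65.2 and 69.5 at 30h. CCT2 had signals of 99.1, 503 and 484 at 0h, then 299.9, 316 and 309 at 4h, then 25.7, 30.3 and 33.6 at 8h, and last 58.6, 38.4 and 48 at 30h. CCT7 had signals of 183, 308 and 336 at 0h, then 235, 259.9 and 257 at 4h, then 104, 62.6 and 74.7 at 8h, and last 75, 68.7 and 68.5 at 30h.

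In each of these, all 8h and 30h arrays lay below all earlier ones. The changes at 8h against 4h were -2.37 ± 0.33 for TCP1, -3.38 ± 0.47 for CCT2, -2.39 ± 0.37 for CCT6 and -1.67 ± 0.27 for CCT7 (adjusted p = 2.71e-05, 2.95e-05, 7.97e-05 and 9.68e-05). CCT3 was 0.38 ± 0.39, CCT4 -0.71 ± 0.34, CCT5 -0.52 ± 0.26 and CCT8 -0.56 ± 0.37 (adjusted p = 0.399, 0.0809, 0.0975 and 0.198). Whether the subunits differ from each other in this step was not tested, and the probe sets of CCT4, CCT5 and CCT8 were called lower with median centring (adjusted p = 0.00225, 0.016 and 0.0186).

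Sample 0h A stood apart in most chaperonin genes. It lay below 0h B and C for TCP1, CCT2, CCT4, CCT6, CCT7 and CCT8, by a little for CCT3, and above them for CCT5, whose 0h signals were 519.9, 294 and 337. CCT5 fell by 0.95 ± 0.26 (adjusted p = 0.0184), a call lost without any single 4h array and, at -0.59, without 0h A and 0h C together (highest adjusted p = 0.194). Without 0h A the median of the 8 was -0.50, and CCT2, at 0.09 ± 0.47 with all arrays, was called lower at -0.65 (adjusted p = 0.0378).

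At 30h against 0h, the called changes were -2.60 ± 0.47 for CCT2, -2.39 ± 0.37 for CCT6, -2.30 ± 0.33 for TCP1, -1.92 ± 0.27 for CCT7, -1.24 ± 0.26 for CCT5 and -0.996 ± 0.34 for CCT4. The call of CCT4 (adjusted p = 0.0194) was lost without 30h C and without either of 0h B and 0h C (adjusted p up to 0.0948), and its size was -1.65 with median centring. CCT3 and CCT8 were -0.63 ± 0.39 and -0.84 ± 0.37 (adjusted p = 0.166 and 0.0608).

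Other genes of the folding machinery, from lists that hold none of the 38, were counted in the same way. Among all tested genes, 11.8% rose and 11.8% fell at 4h against 0h, and 30.7% rose and 33.9% fell at 8h against 4h. With scaling to 1 trimmed mean, the shares at 8h against 4h were 41.6% and 25.7%. Of 22 other cytosolic chaperones and co-chaperones, 1 rose and 4 fell at 4h against 0h (median -0.08). At 8h against 4h 6 rose and 6 fell (median -0.02), and 10 rose with scaling to 1 trimmed mean. BTN2, for a protein that sorts misfolded proteins into deposits, was the gene that rose at 4h, by 1.74 ± 0.33, and it was higher again at 8h, by 1.26 ± 0.33 against 4h, the last not called, at 0.74, with median centring (adjusted p = 0.00218 and 0.00408). EGD1, of the nascent chain complex on the ribosome, fell by 1.31 ± 0.28 and HCH1, for a relative of Aha1, fell by 2.57 ± 0.39 at 8h against 4h; EGD1 was -2.54 with median centring and -2.02 with trimmed scaling. Of 10 other mitochondrial chaperones 1 rose and 0 fell at 4h against 0h (median 0.34), and 1 rose and 6 fell at 8h against 4h (median -1.03), or 3 fell with median centring. TIM44, which anchors mitochondrial Hsp70 at the import channel, was the gene that rose at 4h, by 0.997 ± 0.28 (adjusted p = 0.0196), a call lost without any single 4h array and, at 0.52, without 0h A and 0h C together. ZIM17, which keeps mitochondrial Hsp70 soluble, fell by 3.32 ± 0.32 at 8h against 4h, and MDJ2, a J-domain protein at background on all 0h arrays, was at least 5.49-fold higher at 30h than at 0h.

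Of 13 tested folding factors of the endoplasmic reticulum besides KAR2, 1 rose and 0 fell at 4h against 0h (median 0.20), and 3 rose and 5 fell at 8h against 4h (median -0.57). The shares of all tested genes were 11.8% and 11.8% in the first comparison, and 30.7% and 33.9% in the second. The riser at 4h was PDI1, for protein disulfide isomerase, at 1.13 ± 0.34 (adjusted p = 0.0262), a call lost without any single 4h array, and it was 0.65 without 0h A. At 8h against 4h PDI1 fell by 2.67 ± 0.34 and CPR5, for an isomerase of the same compartment, fell by 4.43 ± 0.60.

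Prefoldin, which hands new actin and tubulin to the chaperonin, was measured with the chaperonin cofactor PLP2 as a list of 7 genes. Of these, 0 rose and 4 fell at 4h against 0h (median -1.20), where 11.8% of all tested genes rose and 11.8% fell. Without 4h B 1 of the 7 fell, as did 6.41% of all tested genes. At 8h against 4h 3 rose and 1 fell (median -0.40), where 30.7% of all tested genes rose and 33.9% fell. PFD1, a prefoldin subunit, fell by 1.30 ± 0.36 at 4h against 0h, a call lost if 4h A or 4h B is left out, and rose by 2.997 ± 0.36 at 8h against 4h, while PLP2 fell by 1.79 ± 0.28 at 8h against 4h (adjusted p = 0.0187, 7.65e-06 and 7.94e-05). PLP2 was -1.01 with scaling to 1 trimmed mean.

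Among the chaperonin's own substrates, all 4 genes for actin and tubulin rose at 4h against 0h (median 1.01), or 1 without 4h B, and 3 fell at 8h against 4h (median -1.75). Of all tested genes 11.8% rose at 4h against 0h, 5.82% rose without 4h B, and 33.9% fell at 8h against 4h. ACT1, for actin, rose by 0.74 ± 0.25 at 4h against 0h (adjusted p = 0.0457), lost under 12 of 22 settings, among them both other scalings (0.49 with the trimmed mean) and leaving out 0h A, 0h B, 8h B, 30h B or any single 4h array. TUB2, for beta-tubulin, rose by 1.01 ± 0.26 at 4h against 0h (adjusted p = 0.0132), a call lost without any single 4h array, and it was 0.66 without 0h A, the array with the 3′ to 5′ ratio of 35.5.

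Transcripts of the factors that drive chaperone and stress genes were measured as a list of 6, of which 1 rose and 0 fell at 4h against 0h, and 1 rose and 4 fell at 8h against 4h. In the second of these steps 30.7% of all tested genes rose and 33.9% fell, and in the first 11.8% and 11.8%. HSF1 was -0.10 ± 0.39 at 4h against 0h and -0.80 ± 0.39 at 8h against 4h (adjusted p = 0.869 and 0.0834). MSN2 was 0.43 ± 0.25 at 4h against 0h (adjusted p = 0.227) and fell by 0.63 ± 0.25 at 8h against 4h, not called with scaling to 1 trimmed mean, at -0.19, nor without any single 4h or 8h array. MSN4 was 0.84 ± 0.31 at 4h against 0h (adjusted p = 0.0675) and fell by 1.28 ± 0.31 at 8h against 4h (adjusted p = 0.0028), not called, at -0.75, with scaling to 1 trimmed mean. Neither HSF1 nor MSN2 nor MSN4 was called at 4h against 0h in the quantile-normalised fit of all 12 arrays. At that time many chaperone transcripts were higher than at 0h. With median centring 2 of the 6 factors rose at 4h against 0h, where 18.6% of all tested genes did. Transcript levels of these factors do not measure their activity. SKN7, for a regulator of the oxidative stress response, rose by 0.90 ± 0.30 at 8h against 4h (adjusted p = 0.0163), not called without 8h A.

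HAC1, for the factor of the unfolded protein response that activates KAR2, was the gene of the 6 that rose at 4h, and it is named after its values were seen. Its signals were 3.41, 217 and 1.42 at 0h, then 396, 319 and 142 at 4h, then 11.3, 6.38 and 8.2 at 8h, and last 35, 8 and 25.3 at 30h. Samples 0h A and 0h C, with the high 3′ to 5′ ratios, were at background while 0h B lay within the range of the 4h arrays. The rise of 4.69 ± 1.31 at 4h against 0h (adjusted p = 0.02) was 2.71 with an offset of 16 added before log2 and was lost when 0h A, 0h C, 4h A or 4h B was left out, and the change was 0.26 without both 0h A and 0h C (adjusted p = 0.85). HAC1 was at background on all 8h arrays and at least 14.6-fold lower at 8h than at 4h (adjusted p = 0.00439), a call that stood under each alternative.

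Set side by side, the class medians were farthest apart at 4h against 0h. The median change at 4h against 0h was 1.63 for stress-induced heat shock proteins, 1.03 for mitochondrial chaperones, 0.74 for cytosolic co-chaperones, 0.71 for constitutive cytosolic chaperones and -0.05 for chaperonin subunits. At 8h against 4h all 5 medians were below 0, between -2.18 for stress-induced heat shock proteins and -1.19 for chaperonin subunits; constitutive cytosolic Hsp70, Hsp90 and Hsp110 were lowest with median centring, at -3.26, and with scaling to 1 trimmed mean, at -2.73. At 30h against 0h they were -0.67 for stress-induced heat shock proteins, -0.79 for mitochondrial chaperones, -1.35 for co-chaperones, -1.58 for chaperonin subunits and -1.77 for constitutive cytosolic chaperones, of which all 6 fell. These medians describe the listed genes, and the classes were not tested against each other.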

How the data were processed

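The authors deposited 1 linear intensity signal per probe set for each array, 10928 probe sets in all, made with GCOS 5.0 and MAS5 per the submitters' processing notes; parameters and detection calls are not given in the sources used here. Arrays differ in scale: the mean after trimming 2% at each end was 100.07 to 100.08 on the 4h arrays and 22.6 to 377 on the others. The platform annotation, which can be old, named 1 S. cerevisiae gene for 5685 probe sets and 1 S. pombe gene for 4916. For a gene with several probe sets, those without shared-probe endings and then the brightest were preferred. Genes whose mean log2 signal exceeded the 95th percentile of S. pombe means (a signal of 7.74) were tested, 5503 of 5635. Log2 signals were quantile-normalised and fitted with limma 3.58.1 in R 4.3.3 (1 coefficient per time, 8 residual degrees of freedom, eBayes with trend, two-sided). Where all 3 arrays of a time were at background, a fold is a bound against the S. pombe threshold. The steps were tested on simulated data. Those data had the same spread at every time, unlike these arrays, so they cannot show how the calls fare under unequal spread. Members and lists were chosen with earlier results of these data known. All members are named; signals per array are given for the 3 members of each class with the largest F, KAR2 and the related families, and for HSP26, HSP30, APJ1 and HAC1, added after their values were seen. From each other list the 2 genes with the largest F are named, with HSF1, MSN2 and MSN4, and, chosen after their values were seen, BTN2, TIM44 and HAC1. FKB2 of those lists was not matched by name. Precision is limited by having 3 arrays a time. Sample letters did not pair the samples throughout: correlations of deviations between samples of the same letter ranged from -0.21 to 0.24 over 5503 genes. At 30h against 8h, letters A and C matched their own letter best. Their correlations were 0.19 and 0.24, against at most -0.06 and 0.07 with other letters.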

Additional observations from a re-analysis of the deposited data

How the results depend on the processing

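The totals over the 38 members at 8h against 4h and at 30h against 0h stayed within 1.5 times under every alternative run, which did not hold for 4h against 0h, for the step from 8h to 30h or for some class counts given above. Of the calls of the 38 genes, 8 of 17 stood under all 22 alternatives at 4h against 0h, 31 of 32 under all 21 at 8h against 4h, 0 of 3 at 30h against 8h and 21 of 28 at 30h against 0h. With median centring, and with each array scaled to 1 trimmed mean, 2 members fell at 4h against 0h, and 0 rose and 0 fell at 30h against 8h. Quantile normalisation of early and late arrays on their own, chosen after seeing the data, gave the same 2, 0 and 0. With only the arrays of the 2 times compared, 0 rose at 30h against 8h. Without 0h A and 0h C together, 10 rose at 4h against 0h and 2 rose at 30h against 8h. A replicate block on the sample letter gave 15 members higher at 4h against 0h in place of 16, with the call of APJ1 lost. It left the other totals over the 38 members as they were, and over all tested genes it gave 618 higher and 639 lower at 4h against 0h. The letters were not found to pair the samples throughout. Leaving out 1 array at a time gave 9 to 16 higher and 0 to 4 lower at 4h against 0h, 2 higher each time and 29 to 33 lower at 8h against 4h, 0 to 3 higher and 1 to 5 lower at 30h against 8h, 2 to 3 higher and 22 to 27 lower at 30h against 0h, and 33 to 37 in the F test; the 4 lower at 4h and the 3 and 5 at 30h came without 0h A. CCT2 at 4h against 0h turned to -0.65 without 0h A and was 0.48 without 0h B. HAC1 at 30h against 0h turned to -3.37 without 0h A and 0h C. Scaling to 1 trimmed mean moved the median tested gene to 0.38 at 8h against 4h and 0.40 at 30h against 0h, with 2289 genes higher and 1416 lower in place of 1692 and 1863 at 8h, and 2212 and 1333 in place of 1715 and 1830 at 30h. At 4h against 0h all tested genes gave 647 higher and 648 lower, 1025 and 907 with median centring, and 901 and 1024 with trimmed scaling. These counts were 320 and 353 without 4h B, and 783 and 767 without 0h A. At 30h against 8h all tested genes gave 50 and 150, 6 and 43 with median centring, 7 and 49 with trimmed scaling, and 255 and 313 without 0h A. The causes were not tested. A low signal over background limits SSA4 and HAC1 at 8h, whose falls are bounds. It also limits SSA3, above background on 1 of 3 arrays at 8h, and SSA1, SBA1 and MDJ1, on 2 of 3. The changes of these 4 genes to and from 8h are given as fitted, without a bound.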
